A study of Mus musculus with 4 samples.

Results

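Mature neutrophils of the mouse digit were selected on their own transcript counts. A cell barcode was a member when it had at least 300 genes, at least 500 unique molecular identifiers (UMIs) and at most 10% mitochondrial UMIs, when Camp, Ngp and Ltf summed to fewer than 10 UMIs, S100a8 and S100a9 to at least 10, Csf3r and Cxcr2 to at least 2, and C1qa, C1qb and C1qc to at most 2. The rule chose 992 of the 50625 deposited barcodes, 483 in the unamputated library and 193, 196 and 120 at 12, 17 and 28 days post-amputation (dpa). The study placed digits amputated through the middle phalanx (P2), a level whose wound the labels describe as fibrosing, beside homeostatic P2 tissue. All libraries came from wild-type FVB/NJ mice aged 8 weeks, labelled as pools of both sexes, and no drug or transgene was named. Hand-dissected tissue had been digested with trypsin and collagenase I, depleted of red cells, sorted for exclusion of propidium iodide and run on droplet chips that tag the end of each transcript. Each time point was 1 library, so no comparison of conditions could be tested, and each interval printed is a 95% interval for counting error alone.

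Neutrophils are short-lived phagocytes that leave the bone marrow through the blood and enter injured tissue. They make their granule proteins in sequence during development in the marrow, so that transcripts of the primary and secondary granules (Elane, Mpo, Camp, Ngp, Ltf) are largely gone from a released cell, while receptors for G-CSF (Csf3r) and for CXC chemokines (Cxcr2) mark the late stages. In tissue, signals through NF-kB drive their output of the cytokine IL-1 beta and of chemokines that recruit further leukocytes.

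The label was checked on genes that the rule did not use. Il1b, the gene of IL-1 beta, had at least 1 UMI in 89.2%, 94.8%, 94.4% and 96.7% of the members in the unamputated, 12, 17 and 28 dpa libraries. Ptprc, the pan-leukocyte gene, had a UMI in 94%, 82.9%, 93.9% and 86.7%. Defining B-cell and plasma-cell genes were at or near 0, with a summed level of 0 to 3.407 CPM (UMIs scaled to the same total in each library) for 6 markers, and the 10 markers of mast cells, basophils and eosinophils together reached 2.902 to 49.2 CPM. Markers of other cells were present. Over all members the 8 monocyte markers summed to 1619, 786.8, 1957 and 995.4 CPM and the 10 macrophage markers to 520.5, 633.9, 603 and 978 CPM. The 8 dendritic cell markers reached 694.7, 231.7, 1166 and 78.36 CPM. Fibroblast markers were higher still, at 7659, 9995, 32861 and 11100 CPM, and keratinocyte markers stood at 1468, 4182, 618.7 and 5618 CPM. Markers of immature neutrophils and progenitors, which include the rule genes Camp, Ngp and Ltf, summed to 1359, 373.3, 723.3 and 336.6 CPM. Without the deepest cells, described next, the sums were 258.6, 210.9, 380.8 and 490.8 CPM for monocyte and 335.4, 427.3, 521.6 and 625.2 CPM for macrophage markers. They were then 934.6, 3174, 1544 and 3412 CPM for fibroblast markers and 757.2, 521.6, 1163 and 333.1 CPM for markers of immature neutrophils and progenitors.

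The members were shallow cells with a deep tail. Their median depth was 2546, 1912, 2148 and 1534 UMIs and their median number of genes was 999, 820, 889 and 751, in the same library order. A minority lay over 3 times the median of their library: 61, 14, 26 and 15 cells, which were 12.6%, 7.25%, 13.3% and 12.5% of the members but held 51.7%, 42%, 59.9% and 50.3% of the members' UMIs. Of these deep cells 95.1%, 100%, 96.2% and 100% had 10 or more UMIs of a marker list of another lineage, against 2.84%, 13.4%, 4.12% and 7.62% of the other members. A doublet score marked 83.6%, 64.3%, 69.2% and 80% of them against 0.948%, 1.68%, 2.35% and 5.71%. Monocyte markers reached 10 UMIs in 40 of the 61, 5 of the 14, 14 of the 26 and 5 of the 15 deep cells, against 3 of 422, 0 of 179, 1 of 170 and 0 of 105 others, and their part in the results was not tested. The collagen gene Col1a1 stood at 4399, 5351, 15524 and 4676 CPM in the deep members and at 260.3, 1187, 393.8 and 660.3 CPM in the others. The bone matrix gene Ibsp was at 2663 CPM in the deep members of 17 dpa against 10.43 CPM in its other members, and the basal keratin gene Krt14 at 4271 against 177.6 CPM at 12 dpa. Unless all members are named, levels are given below for the 422, 179, 170 and 105 members that do not exceed 3 times the median. Shares of cells past the filter, shares of UMIs, thinned values and the edges of the rule hold all members instead. For single genes named as past 2-fold after amputation the text says where all members fell short of it. Among members up to 3 times the median, the share with 10 or more UMIs of the fibroblast markers was still 1.42%, 12.8%, 1.76% and 7.62%.

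The 12 dpa library differed from the others in sex transcripts, although all are labelled as pools of both sexes. Not 1 of its 193 members had a UMI of a Y-linked gene (Ddx3y, Eif2s3y, Kdm5d or Uty), while 76.6%, 73% and 74.2% of the members of the unamputated, 17 and 28 dpa libraries did. Xist, an RNA of female cells, was found in 42 of its members and in 1 of 483, 0 of 196 and 0 of 120 members of those libraries. The members of those libraries thus nearly lacked Xist, also against the label. Each comparison of 12 dpa with unamputated is thus also one of libraries that differ in sex transcripts, and time and sex cannot be told apart. Of 278 barcode sequences found in more than 1 library, 11 belonged to members, none of them a member in both libraries.

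Mature neutrophils were most frequent in the unamputated digit and least frequent at 28 dpa. They made up 3.95% (3.61 to 4.31) of the 12239 cells past the filter in the unamputated library and 2.73% (2.36 to 3.14) of 7064 at 12 dpa. The share was 2.22% (1.93 to 2.55) of 8813 at 17 dpa and 1.01% (0.841 to 1.21) of 11836 at 28 dpa. The intervals of 12 and 17 dpa overlapped, and the unamputated and 28 dpa libraries stood apart from both. Among cells with a Ptprc UMI the shares were 10.7%, 9.1%, 7.27% and 3.88%, in the same order. Over the same libraries macrophages, gated on C1q genes, went from 7.59% to 8.08%, 12.1% and 15.2%. The fall was not particular to neutrophils: monocytes went from 3.71% to 2.19%, 1.6% and 0.591%. T and NK cells stood at 1.76%, 1.77%, 1.04% and 0.414%. Fewer neutrophils cannot be told apart from more cells of other types in the dissociated sample. At the edge of the rule, over all members, those with exactly 2 UMIs of Csf3r and Cxcr2 numbered 67, 52, 49 and 39. They carried Il1b at 2606, 5983, 3907 and 8287 CPM, deep cells included. The cells just outside, with 1 such UMI and likewise of any depth, numbered 84, 48, 40 and 37. These carried it at 1862, 3969, 2712 and 2576 CPM.

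**Figure D1:**
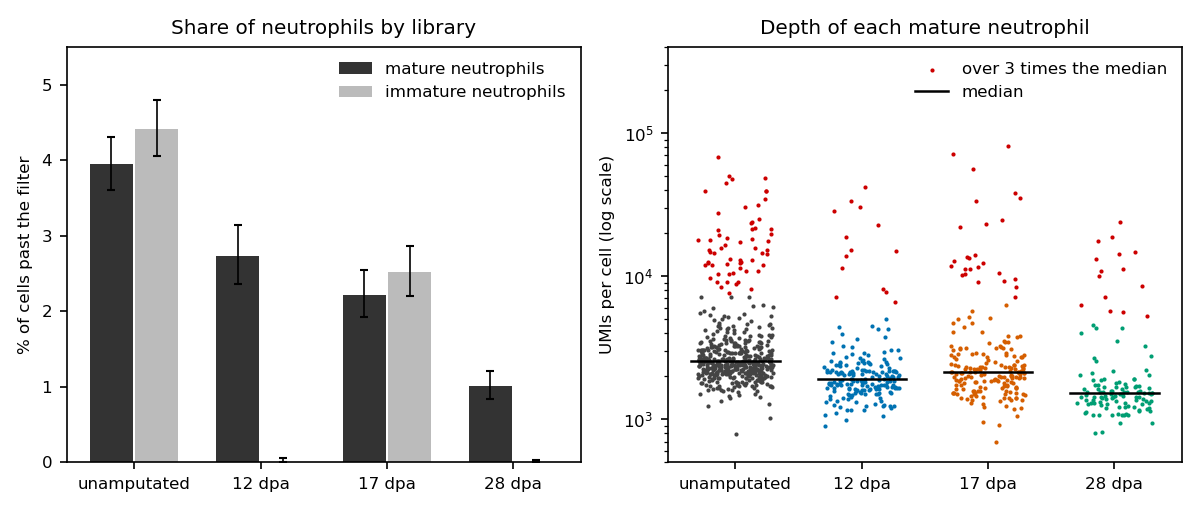
Left, the share of mature and immature neutrophils among cells past the filter in each library, with exact binomial 95% intervals; mature cells go from 3.95% to 1.01%, and immature cells are at 0 in the 12 and 28 dpa libraries. Right, UMIs of each mature neutrophil on a log scale, with the library median as a line and the 61, 14, 26 and 15 cells over 3 times the median in red.

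Earlier neutrophil stages were present in the unamputated and 17 dpa libraries and not detected in the other libraries. Immature neutrophils, with 10 or more UMIs of the granule genes Camp, Ngp and Ltf (which encode cathelicidin, neutrophilic granule protein and lactoferrin), numbered 541 in the unamputated library, 4.42% (4.06 to 4.8) of its cells, and 222 at 17 dpa, 2.52% (2.2 to 2.87). There were 0 among 7064 cells at 12 dpa and 0 among 11836 at 28 dpa, which allows shares of up to 0.0522% and 0.0312%. Over all cells past the filter Camp had 199825, 24, 68052 and 31 UMIs in the unamputated, 12, 17 and 28 dpa libraries. Cells with 10 or more UMIs of the promyelocyte genes Elane, Mpo and Prtn3, which encode the primary granule enzymes neutrophil elastase, myeloperoxidase and proteinase 3, numbered 31, 0, 15 and 0.

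The unamputated and 17 dpa libraries allowed mature and immature neutrophils to be set side by side, as a description, since the gates were defined on the stage. Over all members, the deep cells included, 394 of 3224 genes were past 2-fold higher in the mature cells in both libraries and 158 past 2-fold lower. These counts include genes carried by the deep cells: Bglap, an osteoblast gene, had 56.22 and 1205 CPM over all members (log2 ratios of 3.56 and 7.14) and 0.8825 and 0 CPM without them. The levels given next leave out the deep cells of the mature group and hold all immature cells; over all members the log2 ratios of the same genes were 2.68 to 3.71 for those higher and -6.14 to -3.47 for those lower. Genes higher in mature cells included Ptgs2, which encodes the prostaglandin synthase COX-2 (1493 CPM against 63.14 unamputated, 1182 against 72.07 at 17 dpa), and the integrin gene Itgax (194.2 against 8.032, and 203.4 against 10.66). The kinase gene Pim1 (1730 against 122.4, and 1494 against 114.2) and the interferon-stimulated gene Isg15 (294.8 against 9.527, and 331.2 against 7.106) behaved alike. Among the genes lower in mature cells, Lcn2, the siderophore-binding lipocalin, had 182.7 CPM against 8037 unamputated and 399.1 against 7847 at 17 dpa. Chil3 (5.295 against 3513, and 7.825 against 3018), the ficolin gene Fcnb (0.8825 against 213.7, and 0 against 323.8) and Cebpe, the transcription factor of the secondary granule stage (4.413 against 125.7, and 7.825 against 147.7), were lower too. Over all members Chil3 had 72.83 and 42.92 CPM and Fcnb 12.78 and 3.14 CPM in the mature cells.

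Retnlg, which encodes a resistin-like secreted protein of neutrophils, differed among members by their few granule UMIs. Free RNA can give such UMIs to cells that do not make the transcript, and its part in these bins was not tested. In the unamputated library it stood at 5880 CPM in members without a UMI of Camp, Ngp or Ltf, at 9203 CPM with 1 to 2 such UMIs, at 40181 CPM with 3 to 9 and at 7143 CPM in immature cells. High levels were not limited to members: the cells just outside the rule, with 10 to 19 granule UMIs, had 30935 CPM in the unamputated library (19 cells) and 29895 CPM at 17 dpa (13 cells). Mmp8, the neutrophil collagenase gene, had 189.1, 222.4, 855.1 and 631.2 CPM in the same bins, and Il1b had 7805, 6423, 2905 and 326.5 CPM. At 17 dpa Retnlg stood at 6108 CPM without granule UMIs, 14900 CPM with 1 to 2 and 11359 CPM in immature cells, while Mmp8 had 123.2, 588.6 and 636.5 CPM and was not highest before the immature bin.

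**Figure D2:**
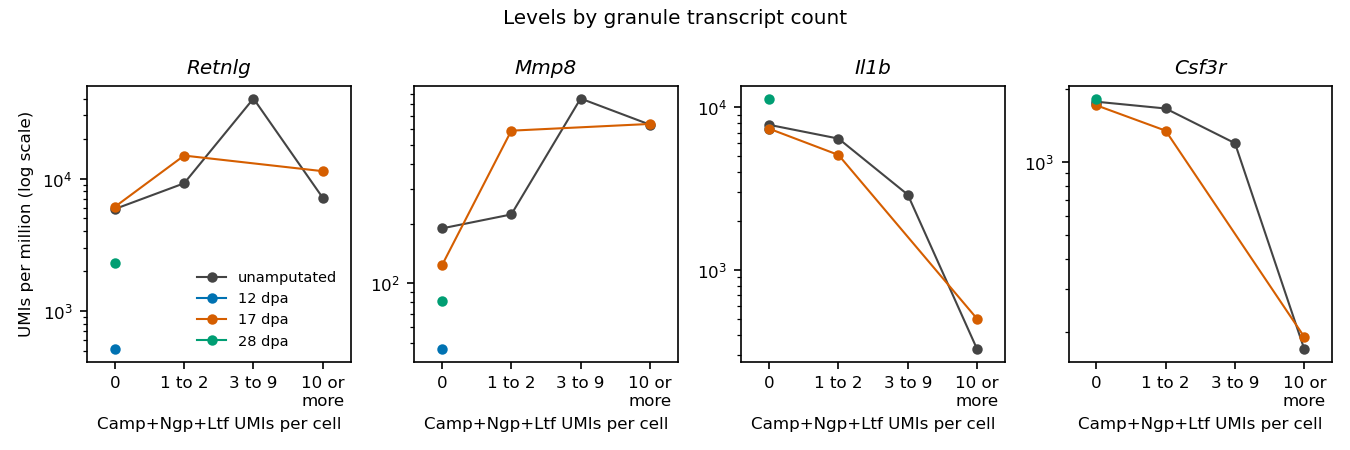
Levels of Retnlg, Mmp8, Il1b and Csf3r in CPM (log scale) by the number of Camp, Ngp and Ltf UMIs per cell, for bins of at least 20 cells; the last bin holds immature neutrophils, and Csf3r was used to choose the members but not the immature cells. The 12 and 28 dpa libraries fill only the first bin, where Retnlg is at 514.2 and 2314 CPM against 5880 unamputated and 6108 at 17 dpa.

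Mature neutrophils carried a large part of the Il1b RNA of every library. Deep members included, they held 37.1%, 35.7%, 29.3% and 33.3% of the Il1b UMIs of the cells past the filter in the unamputated, 12, 17 and 28 dpa libraries. Their part of all UMIs of those cells was 1.32%, 0.75%, 1.05% and 0.349%. Thinned to 1000 UMIs per cell, which left out 1, 2, 3 and 4 shallower members, Il1b was found in 79% (75.1 to 82.6), 90.6% (85.5 to 94.3), 82.4% (76.3 to 87.5) and 92.2% (85.8 to 96.4) of members. Fibroblasts, which should lack it and had median depths of 8197.5 to 16250.5 UMIs, showed it in 0.132% to 0.266% of cells at the same thinning. Its levels were 7096, 7336, 6622 and 11324 CPM. The first 3 libraries lay close together, and 28 dpa was higher by 0.67 on the log2 scale (0.602 to 0.746), short of 2-fold. The median member had 5, 6, 4 and 9 Il1b UMIs of 1000, and the highest 38, 35, 45 and 39.

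Cxcl2, a chemokine that draws neutrophils through Cxcr2, was the most abundant cytokine or chemokine transcript of the members, at 11629, 14521, 9995 and 16553 CPM. It was spread less evenly than Il1b: thinned to 1000 UMIs, the median member had 3, 7, 3 and 3 UMIs and the highest 123, 138, 99 and 197, and 63.5%, 82.2%, 60.1% and 66.4% of members had any. At this thinning, members with an Il1b UMI had Cxcl2 in 68.5% of cases unamputated, against 44.6% of members without. The shares were 85.5% against 50% (9 of 18) at 12 dpa and 63.5% against 44.1% at 17 dpa. At 28 dpa the shares were 66.4% and 66.7%, the second over 9 members. The members' part of all Cxcl2 UMIs of the cells past the filter was 34.3%, 30.2%, 17.6% and 14.1%. Fibroblasts had Cxcl2 in 1.72% to 4.58% of cells at the same thinning.

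Promoters are shown for Il1b and Cxcl2, the most abundant cytokine genes of these cells, and for Retnlg. Among the genes named without the deep members, Retnlg had the ratio of largest size at 12 dpa. Each is the 250 bases before the transcript start, from RefSeq on GRCm38.p6, on the strand of the gene. Il1b lies at chr2:129371140-129371389 on the minus strand, Cxcl2 at chr5:90903649-90903898 on the plus strand and Retnlg at chr16:48872358-48872607 on the plus strand. Capitals mark matches to a C/EBP motif (TTGCNNAA) or to the NF-kB site, a motif of 10 letters (3 G, a purine, 2 of any kind, 2 pyrimidines and 2 C), searched on both strands.
Il1b: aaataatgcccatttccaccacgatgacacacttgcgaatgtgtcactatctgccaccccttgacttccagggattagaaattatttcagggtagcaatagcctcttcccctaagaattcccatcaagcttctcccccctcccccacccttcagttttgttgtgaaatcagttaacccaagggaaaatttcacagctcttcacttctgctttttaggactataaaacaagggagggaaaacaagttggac
Cxcl2: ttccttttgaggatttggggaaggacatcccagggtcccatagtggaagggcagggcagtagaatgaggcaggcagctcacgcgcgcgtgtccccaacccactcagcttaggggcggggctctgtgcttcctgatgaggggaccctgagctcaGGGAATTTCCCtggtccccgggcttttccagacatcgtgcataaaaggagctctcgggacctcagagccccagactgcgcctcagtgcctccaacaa
Retnlg: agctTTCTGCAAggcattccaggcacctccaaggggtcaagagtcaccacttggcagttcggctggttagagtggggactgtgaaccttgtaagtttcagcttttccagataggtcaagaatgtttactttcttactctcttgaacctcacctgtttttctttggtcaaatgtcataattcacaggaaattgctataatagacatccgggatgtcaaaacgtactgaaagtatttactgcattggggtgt
The capitals in Cxcl2 are a pair of overlapping NF-kB matches, 1 on each strand, between 97 and 87 bases before the start. Those in Retnlg are a C/EBP match on the minus strand. Of 32851 promoters in the table, 9.56% held the C/EBP motif and 7.25% the NF-kB motif in the same window, and the window of Il1b held neither set of letters. A match describes the letters alone.

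At 12 dpa the members had less Retnlg and Fos and more of the NF-kB genes Sod2, Icam1 and Tnfaip2 than unamputated members. Over all members, 236 of 6824 genes were past 2-fold higher (3.46%) and 555 lower (8.13%), with a gene counted from 20 CPM in the higher library. The share higher depended on the choice of cells: it was 10.1% (574 of 5703) with doublets removed and 8.04% (567 of 7049) with a receptor threshold of 4 UMIs. The comparisons of 12, 17 and 28 dpa share the unamputated library. Without the deep members, where the smaller sums call for a minimum of 100 CPM, 61 of 1756 genes were higher (3.47%) and 125 lower (7.12%), and the median over all these genes was -0.11. Of the 16 genes named over all members by their size of change, 3 were still past 2-fold without the deep cells (Nupr1, Retnlg and Sntb1) and 2 took the other sign. Nupr1 then had 5 UMIs in each library and Sntb1 23 unamputated and 0 at 12 dpa, both genes under the minimum of 100 CPM. The genes described next therefore come from the gene lists, were named by the same rule among the other members or, for Fth1, were chosen after the values were seen.

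Retnlg had 9628, 499.4, 11622 and 2314 CPM in the unamputated, 12, 17 and 28 dpa libraries. The unamputated and 17 dpa libraries were high and 12 dpa was lowest, a log2 ratio of -4.26 (-4.49 to -4.06) against unamputated. It was found in 57.8%, 28.5%, 62.4% and 58.1% of members, and the highest member had 463, 13, 306 and 35 UMIs. Members without any Camp, Ngp or Ltf UMI showed the same order, with 5880 CPM unamputated and 514.2 at 12 dpa. Macrophages had 2.972, 0.1767, 4.875 and 0.1205 CPM of Retnlg. Thinned to 1000 UMIs it was found in 44.2%, 21.5%, 52.8% and 48.3% of members and in 0% to 0.399% of fibroblasts.

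Cstdc5, Stfa2 and Stfa2l1, which encode cysteine protease inhibitors of the stefin family, were high in the unamputated and 17 dpa libraries and low in the others. Cstdc5 had 979.6, 99.88, 1328 and 181.1 CPM, a log2 ratio of -3.23 (-3.82 to -2.82) at 12 dpa and -1.49 over all members; with doublets removed instead, its levels were 826.3, 296.2, 1041 and 163.4 CPM. Stfa2 had 253.3, 36.07, 331.2 and 75.96 CPM, and Stfa2l1 had 1631, 774.1, 1651 and 596 CPM (at 12 dpa short of 2-fold over all members, at -0.89). These gene copies are near-identical in part, so reads could be divided among them by the authors' counting. Of the specific granule list (13 genes), 8 could be compared, with a median of -0.56. None was past 2-fold higher and 4 were lower, where 7.12% of all genes were lower. The 4 were Mmp8, Lyz2, the oxidase subunit gene Cybb and the annexin gene Anxa1. Over all members the counts were 0 and 5 of 11, with Anxa1 short of 2-fold at -0.29. The list of gelatinase granule and late maturation genes, which holds Retnlg and the stefins Stfa2 and Stfa2l1, had a median of 0.2, with 3 of 15 past 2-fold higher and 3 lower. Mmp8 had 255.9, 47.17, 310.4 and 81.8 CPM and the lysozyme gene Lyz2 2336, 677, 2593 and 923.2 CPM. In both genes the unamputated and 17 dpa libraries were high and the 12 and 28 dpa libraries low. Lcn2 did not share this order, with 182.7, 366.2, 399.1 and 157.8 CPM. Immature neutrophils numbered 541, 0, 222 and 0 in the same libraries. Markers of immature neutrophils and progenitors, Mmp8 among them, summed to 757.2, 521.6, 1163 and 333.1 CPM in these members. The part of immature cells in the order of Retnlg, the stefins, Mmp8 and Lyz2 was not tested.

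The list of NF-kB target and feedback genes had its highest median at 12 dpa. Of 25 listed, 21 could be compared, with a median log2 ratio of 0.73; 4 were past 2-fold higher (Sod2, Icam1, Tnfaip2 and the survival gene Bcl2a1b) and none lower (over all members 0.69, with 6 higher and 0 lower of 24). Among all genes 3.47% were higher and 7.12% lower. The fibroblast markers summed to 934.6, 3174, 1544 and 3412 CPM in these members, high at 12 dpa and also at 28 dpa, where the NF-kB median was -0.37, and the collagen gene Col6a3 was 2.23 higher at 12 dpa (0.79 over all members); their part in the list's median was not tested. Nfkbia, which encodes the inhibitor that retains NF-kB in the cytoplasm, had 1769, 3332, 1620 and 1712 CPM, and thinned to 1000 UMIs it was found in 70.2% of 12 dpa members against 48.7% to 50.6% elsewhere, and in 8.05% to 21.1% of fibroblasts. Tnfaip2 had 811.9, 1756, 696.4 and 619.4 CPM, the adhesion molecule gene Icam1 188.9, 424.5, 224.3 and 169.4 CPM, and Sod2, the mitochondrial superoxide dismutase, 121.8, 382.9, 247.8 and 87.64 CPM. In each the 12 dpa library was the highest. Of the 153 Icam1 UMIs at 12 dpa 53 lay in 3 members, and with doublets removed instead Icam1 had 230.2 CPM unamputated and 396.5 CPM at 12 dpa, short of 2-fold. Tnfaip3, a brake on the pathway, was not, with 766, 674.2, 675.5 and 280.5 CPM, nor was Il1b.

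Of the 10 genes of the IL-1 family list 7 could be compared at 12 dpa, with a median of 0.64, 1 past 2-fold higher (Casp4, the inflammatory caspase, with 105.9 and 230.3 CPM, and short of 2-fold at 0.78 over all members) and 0 lower, where 3.47% of all genes were higher and 7.12% lower. Other genes of inflammation short of 2-fold lay on either side. Il1rn, the antagonist of the IL-1 receptor, had 820.8, 1262, 808.5 and 864.8 CPM; the receptor subunit Il1rap had 636.3, 1124, 339.1 and 566.8 CPM. Nlrp3, the inflammasome sensor, had 1005, 1570, 970.2 and 1332 CPM. Cd14, a co-receptor for lipopolysaccharide, had 4414, 6104, 4478 and 5720 CPM, and thinned to 1000 UMIs it was found in 91.6% of 12 dpa members against 73.9% to 76.7% elsewhere and 0.429% to 0.763% of fibroblasts. Ptgs2 had 1493, 843.4, 1182 and 1215 CPM, lowest at 12 dpa.

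Other single genes were higher at 12 dpa, of which Ifitm1, Ifitm2 and Wfdc17 belong to the gelatinase granule and late maturation list. Lrg1, a secreted glycoprotein of neutrophil granules, had 52.07, 299.6, 52.16 and 58.43 CPM, 2.42 higher on the log2 scale (2.05 to 3.01), in 58 of 179 members against 35 of 422, 11 of 170 and 9 of 105 elsewhere. Ifitm1 and Ifitm2, which encode interferon-induced membrane proteins, had 344.2, 1393, 245.2 and 368.1 CPM and 1634, 4234, 1630 and 2507 CPM. Wfdc17, of the whey acidic protein family, had 169.4, 957.2, 99.11 and 601.8 CPM, high at both 12 and 28 dpa. Fth1, the ferritin heavy chain that stores iron, had 18574, 35296, 18641 and 16997 CPM, short of 2-fold at 12 dpa. The genes Lrg1, Ifitm1 and Wfdc17 differed between 12 dpa and unamputated by 0.05, 0.04 and 0.64 in macrophages on the same log2 scale. Lars2, a mitochondrial tRNA synthetase gene, was higher by 2.43 in the members (1.8 over all members) and also by 0.88 in macrophages, 1.2 in fibroblasts, 1.17 in endothelial cells and 0.6 in keratinocytes.

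Fos and a few secreted factors were lower at 12 dpa. Fos, the early-response transcription factor, had 2824, 685.3, 1565 and 1946 CPM, a log2 ratio of -2.04 (-2.24 to -1.86) at 12 dpa. Of the 28 listed immediate early and heat shock genes 24 could be compared, with a median of -0.26; 3 were past 2-fold lower (Fos, Hspa1a and Hspa1b) and 0 higher, where 7.12% of all genes were lower. Vegfa, the vascular growth factor, had 613.4, 244.1, 495.6 and 239.6 CPM, low at 12 and 28 dpa. Osm, the cytokine oncostatin M, had 478.3, 205.3, 477.3 and 613.5 CPM and the chemokine gene Ccl6 1489, 649.2, 1427 and 1291 CPM, both low at 12 dpa alone (Ccl6 at -0.98 over all members). Prok2, a chemoattractant of the prokineticin family, had 363.6 CPM unamputated and 49.94, 117.4 and 58.43 CPM after amputation, and Ciart, a circadian repressor, 121.8 CPM and then 19.42, 36.51 and 75.96 CPM. In these 2 genes the unamputated library was above every dpa library.

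**Figure D3:**
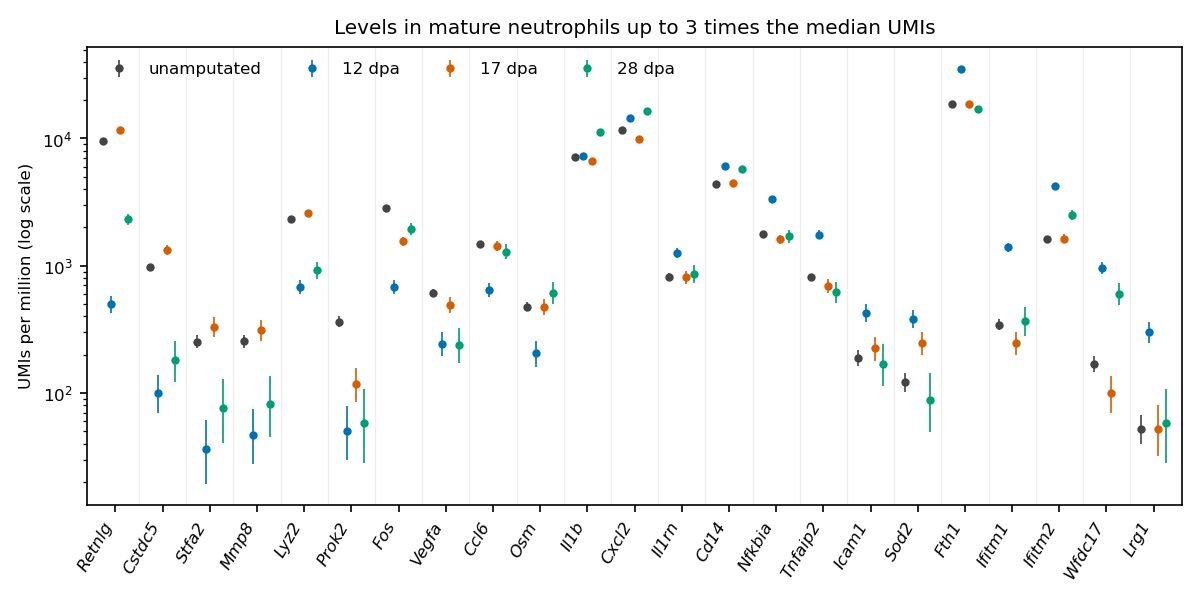
Levels of single genes in CPM (log scale) in the members up to 3 times the median UMIs, with exact Poisson 95% intervals for counting error. From Retnlg to Lyz2 the unamputated and 17 dpa points lie above those of 12 and 28 dpa, and from Nfkbia to Lrg1 the 12 dpa point is the highest.

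At 17 dpa fewer genes were past 2-fold once the deep cells were left out, but their share also moved with the gene minimum. Over all members 439 of 6972 genes were past 2-fold higher (6.3%) and 293 lower (4.2%). Without the deep cells at the same minimum of 20 CPM, 180 of 4847 were higher (3.71%). With the minimum also set to 100 CPM, 18 of 1738 were higher (1.04%) and 36 lower (2.07%), and the median was -0.05. Of the 16 genes named over all members 2 (Prg4 and Fst) were still past 2-fold and 5 took the other sign. Without the deep cells Prg4 had 1 UMI unamputated and 4 at 17 dpa and Fst had 7 and 0, both genes under 100 CPM. Lists with 5 or more comparable genes had medians from -0.5 to 0.31 without the deep cells. The specific granule list stood at 0.21 with 1 of 8 genes past 2-fold higher (Lcn2, 0.85 over all members) and 0 lower.

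A few genes did differ at 17 dpa. Cxcl1, a neutrophil chemokine, had 15, 55.49, 164.3 and 455.8 CPM and was found in 11 of 422, 7 of 179, 19 of 170 and 8 of 105 members. The ratio for 17 dpa was 3.08 (2.66 to 4.32), against -0.09 over all members, and at 28 dpa 59 of its 78 UMIs lay in 1 cell. With doublets removed in place of the deep members, Cxcl1 had 162.6, 51.31, 127.1 and 100.2 CPM and was not higher at 17 dpa. Cxcl3, of the same family, had 76.78, 174.8, 18.26 and 163.6 CPM, lowest at 17 dpa. Tnip1, a partner of Tnfaip3 in restraining NF-kB, had 94.43, 244.1, 200.8 and 70.12 CPM, high at 12 and 17 dpa (0.52 at 17 dpa over all members). Lower at 17 dpa were Lsmem1 (568.4, 510.5, 172.1 and 157.8 CPM), and Cdkn1b, an inhibitor of cell cycle entry (144.7, 133.2, 46.95 and 105.2 CPM). Eno1, a glycolytic enzyme, had 112.1, 105.4, 31.3 and 40.9 CPM, low at both 17 and 28 dpa.

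At 28 dpa, with 105 members and the fewest UMIs, the members had the highest Il1b and Cxcl2 levels, each short of 2-fold, while granule genes differed among themselves. Over all members 546 of 7405 genes were past 2-fold higher (7.37%) and 501 lower (6.77%). Without the deep cells at the same minimum of 20 CPM, 1067 of 5581 were higher (19.1%), and with doublets removed in their place 1024 of 6209 were (16.5%). With the deep cells left out and the minimum set to 100 CPM, 124 of 1852 were higher (6.7%) and 122 lower (6.59%), with a median of -0.09. Of the 16 genes named over all members 8 were still past 2-fold and 2 took the other sign. Without the deep cells those 8 had at most 16 UMIs each at 28 dpa and were under 100 CPM. Them5, 1 of them, had 6 UMIs unamputated and 3 at 28 dpa. Olfm4, a granule glycoprotein that only some neutrophils make, had 132.4, 122.1, 106.9 and 11.69 CPM, with 2 UMIs at 28 dpa and a log2 ratio of -3.04 (-6.56 to -1.62). The log2 ratio was -2.05 (-2.21 to -1.91) for Retnlg, -2.4 for Cstdc5, -1.67 for Stfa2, -1.59 for Mmp8 and -1.33 for Lyz2 (-2.52 over all members). Of the specific granule list 4 of 8 were past 2-fold lower (Olfm4, Mmp8, Lyz2 and Cybb) and 0 higher, with a median of -0.71 (over all members 6 and 0 of 11). The gelatinase granule and late maturation list had a median of -0.11, with 1 of 14 past 2-fold higher and 3 lower. Mmp9, the gelatinase gene, had 467.7 CPM unamputated and 531.7 CPM at 28 dpa, and Lcn2 182.7 and 157.8 CPM.

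The list of hypoxia and glycolysis genes had its lowest median at 28 dpa. Of 28 listed 16 could be compared, with a median of -0.4; 5 were past 2-fold lower (Hk2, Pgam1, Eno1, Vegfa and Hif1a) and 0 higher, where 6.59% of all genes were lower and 6.7% higher (over all members -0.46, with 6 lower and 1 higher of 26, and Hif1a short of 2-fold at -0.94). Hk2, the hexokinase that starts glycolysis, had 123.6, 122.1, 49.56 and 23.37 CPM, although 61 of its 140 unamputated UMIs lay in 1 cell. Pgam1, a glycolytic mutase, had 106.8, 133.2, 67.81 and 29.21 CPM and Hif1a, the oxygen-sensing transcription factor, 289.5, 321.8, 216.5 and 122.7 CPM. The NF-kB list had a median of -0.37, with 0 genes past 2-fold higher and 1 lower, Tnfaip3, at -1.43 (-1.9 to -1.03). Tnf itself was at 161.5, 260.8, 260.8 and 251.2 CPM.

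Several genes higher at 28 dpa came from very few cells. Mecom had 51 UMIs of which 42 lay in 1 member, Stard13 46 of which 36 did, Cadm2 26 of which 22 did and Dmd 28 of which 24 did. Over all members none of these was past 2-fold, with log2 ratios of 0.56, 0.68, 0.85 and 0.59. With doublets removed Mecom had 42.96 CPM unamputated and 63.26 CPM at 28 dpa, short of 2-fold, while Cadm2 (3.069 and 121.2 CPM), Dmd (6.138 and 174 CPM) and Stard13 (25.32 and 63.26 CPM) were past it. S100a4, a calcium-binding protein of motile cells, had 92.67, 88.78, 146.1 and 455.8 CPM, 2.24 higher (1.86 to 2.73) and 0.46 over all members. Serping1, the C1 inhibitor, was found in 12 of 105 members and Plpp3, a membrane lipid phosphatase, in 14, with at most 4 UMIs each in a cell; over all members their log2 ratios were 1.59 and 0.97. The fibroblast marker list summed to 934.6, 3174, 1544 and 3412 CPM over these members, high at 12 and 28 dpa, and its part in such genes was not tested. Cstb (506.6, 793.5, 873.7 and 1239 CPM), a cystatin, and Txn1 (939, 1434, 1341 and 1975 CPM), thioredoxin, were higher at every dpa and most at 28 dpa.

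Few genes of migration and sensing passed 2-fold. Among all genes 3.47%, 1.04% and 6.7% were higher and 7.12%, 2.07% and 6.59% lower at 12, 17 and 28 dpa, and nothing is read from the small counts in these lists. Without the deep cells none of the 6 or 7 comparable chemoattractant receptor genes passed 2-fold at any dpa, and their medians were 0.13, -0.12 and -0.09. Cxcr4, the receptor that returns ageing neutrophils to the marrow, had 693.7, 449.5, 500.8 and 666.1 CPM, and Ccrl2, a chemerin-binding receptor, 4947, 5516, 3440 and 3354 CPM. Of 11 comparable adhesion genes 1 (Icam1, at 12 dpa) was past 2-fold. None of the 13 or 14 comparable innate receptor genes was, with medians of 0.47, 0.26 and 0.27. Siglecf, which marks a neutrophil state described in tumours and injured tissue, was found in 0.622% to 1.72% of thinned members.

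Lists that depended on the deep cells are given with both counts. Over all members 8.13%, 4.2% and 6.77% of all genes were lower at 12, 17 and 28 dpa, and without the deep cells 3.47%, 1.04% and 6.7% were higher and 7.12%, 2.07% and 6.59% lower. The cell cycle list was past 2-fold lower for 15, 11 and 10 of 16 genes over all members at 12, 17 and 28 dpa, whereas without the deep cells 1, 1 and 2 genes could be compared and 0 passed. The azurophil list had 7, 5 and 6 of 8 lower over all members, and 2 genes could be compared without the deep cells, of which Lyz2 was past 2-fold lower at 12 and 28 dpa. Interferon-stimulated genes had 3 of 32 comparable, with medians of 0.23, 0.17 and 0.71, and 1 past 2-fold higher at 12 dpa (Ifitm3, 0.54 over all members). The S100 genes beyond the rule had medians of -0.01, 0.45 and 1.23 over 2, 3 and 4 genes, with 2 past 2-fold higher at 28 dpa (S100a4 and S100a10, neither of them over all members).

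**Figure D4:**
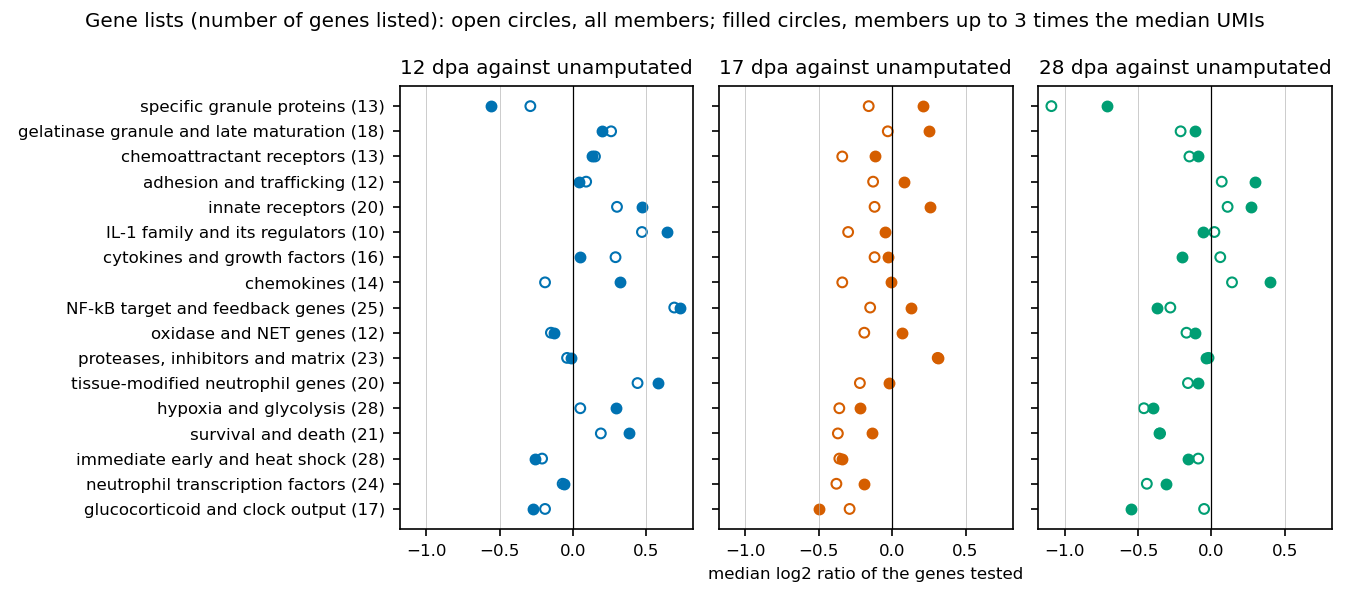
Median log2 ratio of each gene list against unamputated, for lists with at least 5 comparable genes in each library; open circles are all members and filled circles the members up to 3 times the median UMIs. In the order 12, 17 and 28 dpa the NF-kB list stands at 0.73, 0.13 and -0.37, and the specific granule list at -0.56, 0.21 and -0.71.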

How the data were processed

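The authors deposited 1 matrix per library, holding counts of UMIs per gene and cell; per the submitters' processing notes Cell Ranger 7.1.0 and mm10 were used, and cell-calling settings are not given in the sources used here. The 4 libraries held 92313847 to 197140774 UMIs. The members and gene lists were chosen with earlier results of these data known. Counts were summed over members, scaled to CPM and compared as log2 of CPM plus 5, with 2-fold as the threshold and 20 CPM in the higher library as the gene minimum. Rule genes, sex-linked markers, haemoglobin, immunoglobulin and mitochondrial genes were not counted. Named genes were up to 8 a direction with the largest ratio, past filters on markers and levels of other cell classes and on library-wide shifts; genes outside it come from the lists or were chosen after their values were seen (Fth1). Intervals are exact: binomial for shares, Poisson for levels and conditional binomial for ratios. They treat UMIs as independent, although UMIs of a gene cluster in cells. Ratios include the pseudocount; their intervals do not.

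The threshold of 3 times the median UMIs, and the gene minimum of 100 CPM used with it, were chosen after the data were seen; the second was set once the counts at 20 CPM had been seen, since 20 CPM is under 5 UMIs at 28 dpa. Removal of doublets by Scrublet score (scanpy 1.11.5, 0.8% per 1000 barcodes) had been planned and is given under the alternatives. Mature and immature cells were to be compared in 4 libraries, but 2 held no immature cells. The ratio code was tested on simulated data. Alternatives changed cell filters, thresholds of the rule, doublet removal, pseudocount, scaling, cell weighting, depth and gene minimum. Some results are not reported here because they concern withheld items.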

Additional observations from a re-analysis of the deposited data

Results flagged for a closer look

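Xist, the RNA that silences an X chromosome in female cells, had a UMI in 21.8% of the mature neutrophils of the 12 dpa library (42 of 193), a signal outside the comparisons. It was found in 1 of 483 members of the unamputated library and in 0 of 196 and 0 of 120 at 17 and 28 dpa, and Y-linked genes had 1941, 0, 553 and 262 UMIs in the 4 libraries, all of which are labelled as pools of both sexes.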

How the results depend on the processing

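With 1 library per group, no library could be left out, and no paired analysis was possible because each group is a single library. The order of the shares, unamputated above 12, 17 and 28 dpa, held in all 9 settings. In that order the shares were 4.63%, 3.41%, 2.68% and 1.33% with a receptor threshold of 1 UMI, 2.71%, 1.4%, 1.34% and 0.439% with 4 UMIs, and 10.7%, 9.1%, 7.27% and 3.88% of cells with a Ptprc UMI; without the deep members the unamputated share was 3.45%. The number of genes past 2-fold moved by over 1.5 times in 21 counts of genes higher and 18 of genes lower and did not in 27 and 30; moved counts are given as the share of the genes tested, with counts. For 12 dpa the genes higher, 3.46% (236), came to 8.04% (567) with a receptor threshold of 4, 10.1% (574) with doublets removed, 1.52% (104) with a pseudocount of 20 CPM, 7.23% (525) thinned to the smallest library, 3.56% (132) with a gene minimum of 50 CPM and 3.21% (400) with 5 UMIs only. Those lower, 8.13% (555), came to 3.31% (226) with the pseudocount, 12.7% (921) thinned, 6.84% (254) at 50 CPM and 8.32% (1036) with 5 UMIs. For 17 dpa the genes higher, 6.3% (439), came to 3.49% (243) with the pseudocount, 3.71% (197) with each cell weighted equally, 10.5% (782) thinned and 6.78% (262) at 50 CPM. Those lower, 4.2% (293), came to 1.56% (109), 3.14% (167), 9.23% (687) and 3.41% (132) in the same order, and to 4.43% (577) with 5 UMIs. For 28 dpa the genes higher, 7.37% (546), came to 14.7% (1135) with the receptor threshold of 4, 16.5% (1024) with doublets removed, 2.93% of 7405 with the pseudocount, 10.9% (825) thinned and 5.55% of 3910 at 50 CPM. Those lower, 6.77% (501), came to 11% (849) with that threshold, 2.9% (215) with the pseudocount, 5.78% (226) at 50 CPM and 9.25% (1066) with 5 UMIs. The cause of these moves was not tested.

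The settings that leave out members by depth or by genes of another lineage were chosen after seeing the data. Without the deep members, at 20 CPM, genes higher came to 3.71% (180) at 17 dpa and 19.1% (1067) at 28 dpa. At 100 CPM the genes higher and lower were 3.47% (61) and 7.12% (125) at 12 dpa, 1.04% (18) and 2.07% (36) at 17 dpa, and 6.7% (124) and 6.59% (122) at 28 dpa. Without members over 10 UMIs of fibroblast and keratinocyte genes, genes lower were 14.9% (873) at 12 dpa and 11.9% (754) at 28 dpa, and genes higher were 2.35% (139) at 17 dpa. Signs reversed mainly for genes named over all members. Without the deep members the log2 ratios were -0.23 for Tspear and -0.19 for Igfbp2 at 12 dpa, -0.01 for Krt79, -0.31 for Defb6, -0.23 for Htra4, -0.23 for Bglap and -0.44 for Dmp1 at 17 dpa, and 0.90 for Sele and 1.12 for Vcam1 at 28 dpa. The median of the azurophil list turned to 0.54 at 12 dpa and 0.59 at 17 dpa (0.31 at 100 CPM), and that of the cell cycle list to 0.70, 0.17 and 0.33 (at 100 CPM 0.22 at 12 dpa and 0.22 at 28 dpa). Without members rich in fibroblast and keratinocyte genes Tspear was at -0.16, Fras1 at -0.68, Ly6d at -0.08 and Igfbp2 at -0.34 at 12 dpa, Krt79 at -0.05, Defb6 at -0.16, Htra4 at -0.16 and Bglap at -0.30 at 17 dpa, and Mt4 at -0.01, Thbs4 at -0.66 and Calm4 at -0.16 at 28 dpa. With doublets removed Krt79 was at -0.20, Defb6 at -0.20 and Htra4 at -0.21 at 17 dpa, Defb6 was at -0.29 with under 3 granule UMIs, Ibsp at 0.54 at 28 dpa with a receptor threshold of 1, and the cell cycle median at 0.11 at 28 dpa with each cell weighted equally. Of all list medians 884 were the same, 163 moved and 9 reversed. At 28 dpa few UMIs limit genes under 100 CPM.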
